A study of Mus musculus with 6 samples.

Results

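The 33 mouse genes described here encode enzymes and other proteins of the lysosome, compared between megakaryocytes with a Gata-1 knock down and wild type. They are 12 lysosomal peptidases (the cathepsins, legumain and Tpp1), 17 other acid hydrolases or their activators, 3 proteins of the lysosomal membrane and the transcription factor gene Tfeb. They were chosen by name, and each was measured by all probe sets, the groups of short probes that together give 1 signal on an Affymetrix array, whose platform annotation names only 1 of these genes. This gave 69 of the 45101 probe sets in the table, controls included, and 33 of the 18193 genes with a probe set of their own. Each of the 33 genes had at least 1 probe set that passed the filter on dim signals, and 63 of the 69 probe sets passed it.

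The study compared 3 knockdown with 3 wild-type samples, named A, B and C in each group, with 1 array per sample. Both groups were megakaryocytes, the cells that shed platelets, cultured from progenitors of embryonic day 13.5 fetal liver and then purified on an albumin gradient. The titles give a Gata-1 knock down or a wild type, and the labels name no allele, strain or way of lowering Gata-1, nor whether samples came from separate animals or cultures, so that a p-value here speaks for the spread among these 6 arrays, whose source may be technical. Gata1, the transcription factor of megakaryocyte and red cell maturation, read 153.5, 143.3 and 194.7 in knockdown A, B and C and 8723.7, 8246.5 and 8495.6 in wild type A, B and C (log2 fold change -5.52 ± 0.12 SE, limma adjusted p 2.89e-09).

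Lysosomes are acidic compartments in which proteins, sugar chains and lipids are taken apart by hydrolases that arrive from the Golgi, many of them by mannose 6-phosphate receptors. Cathepsins are their main peptidases, glycosidases and sulfatases act on sugar chains in order, and saposins and the GM2 activator present lipids to the enzymes. Megakaryocytes pass lysosomes on to platelets, which release hydrolases on activation, while macrophages and other myeloid cells are known for a large content of cathepsins. TFEB and its relatives of the MiT family switch on many of these genes through a DNA element built on CACGTG.

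The arrays had a common mean of 500.0 after trimming of both tails. Their median deposited signals differed by group, at 111.3 to 137.8 in knockdown and 101.6 to 104.4 in wild type. Background was taken on each array as the brightest of 27 bacterial control probe sets and was 60.7 to 82.2 on 5 arrays and 132 on knockdown B. Pairs of arrays correlated, across probe sets that are no independent replicates, at 0.966 to 0.974 within knockdown, 0.979 within wild type and 0.945 to 0.957 between the groups. Markers of megakaryocytes were present in both groups: all 12 tested lay above background on all 6 arrays. Their summed signal was 114364 to 140448 in knockdown and 159128 to 169713 in wild type. In knockdown 9 of the 12 fell, with a median log2 fold change of -0.51, where 17.1% of all genes tested fell.

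The promoters of 6 members are shown, 4 of genes that fell and 2, Lamp1 and Mcoln1, of genes that did not pass, chosen because they hold the letters searched for. The windows run from 250 bases before to 50 after the start site and come from RefSeq (GRCm38.p6), which held 34 such windows for 29 of the 33 genes. Capitals mark CACGTG, the longer TCACGTGA that contains it, and AGATAA or TGATAA, letters that GATA factors can bind, on either strand.
Ctsz, chr2:174438990-174439289, minus strand: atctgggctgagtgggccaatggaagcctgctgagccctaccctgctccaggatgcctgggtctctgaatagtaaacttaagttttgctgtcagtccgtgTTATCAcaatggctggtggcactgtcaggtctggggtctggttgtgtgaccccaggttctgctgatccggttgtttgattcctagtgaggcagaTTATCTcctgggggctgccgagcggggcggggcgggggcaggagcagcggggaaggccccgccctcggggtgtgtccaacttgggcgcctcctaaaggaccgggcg
Ctsa, chr2:164833523-164833822, plus strand: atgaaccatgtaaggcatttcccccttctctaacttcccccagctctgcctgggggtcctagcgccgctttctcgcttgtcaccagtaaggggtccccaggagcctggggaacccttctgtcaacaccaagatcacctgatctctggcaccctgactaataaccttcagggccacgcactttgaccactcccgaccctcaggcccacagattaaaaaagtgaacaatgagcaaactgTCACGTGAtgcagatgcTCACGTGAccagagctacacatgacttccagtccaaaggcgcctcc
Ctsd, chr7:142387778-142388077, minus strand: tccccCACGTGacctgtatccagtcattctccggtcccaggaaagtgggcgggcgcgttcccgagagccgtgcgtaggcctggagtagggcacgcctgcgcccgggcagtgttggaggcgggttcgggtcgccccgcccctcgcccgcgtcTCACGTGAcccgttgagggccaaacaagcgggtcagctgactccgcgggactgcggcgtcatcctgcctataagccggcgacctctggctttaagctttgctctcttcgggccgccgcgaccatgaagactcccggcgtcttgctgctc
Gla, chrX:134600956-134601255, minus strand: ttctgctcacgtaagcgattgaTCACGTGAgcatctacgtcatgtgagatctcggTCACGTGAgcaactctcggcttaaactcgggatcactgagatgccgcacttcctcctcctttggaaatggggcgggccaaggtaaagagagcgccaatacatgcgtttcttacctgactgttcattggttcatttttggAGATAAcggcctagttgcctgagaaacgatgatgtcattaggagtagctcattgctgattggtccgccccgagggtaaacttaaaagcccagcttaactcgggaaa
Lamp1, chr8:13158911-13159210, plus strand: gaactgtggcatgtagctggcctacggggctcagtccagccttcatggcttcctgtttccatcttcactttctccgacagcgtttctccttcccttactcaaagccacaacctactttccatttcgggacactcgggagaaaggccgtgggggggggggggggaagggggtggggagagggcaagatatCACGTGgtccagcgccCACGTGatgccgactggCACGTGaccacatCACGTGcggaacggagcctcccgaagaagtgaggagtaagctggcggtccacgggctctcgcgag
Mcoln1, chr8:3500269-3500568, plus strand: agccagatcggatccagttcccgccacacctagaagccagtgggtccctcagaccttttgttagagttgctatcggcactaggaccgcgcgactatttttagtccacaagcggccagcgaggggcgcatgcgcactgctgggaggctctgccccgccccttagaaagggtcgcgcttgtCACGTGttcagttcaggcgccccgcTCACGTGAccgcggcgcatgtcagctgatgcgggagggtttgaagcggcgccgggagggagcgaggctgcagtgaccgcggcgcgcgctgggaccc

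Positions are of the first base of a match, counted from the start site with negative numbers before it. The Ctsz window holds AGATAA or TGATAA on the opposite strand at -150 and -56. Ctsa holds TCACGTGA at -13 and 5, Gla at -228 and -195, Ctsd at -99 and Mcoln1 at -46, while Lamp1 has CACGTG at -61, -45, -28 and -15. For Ctsa this is the window shown, and its other window holds none of the letters searched for. CACGTG occurred in 12 of 34 member windows (35.3%), against 7.15% of all 32851 windows of this length, and TCACGTGA in 4 of 34 (11.8%) against 0.974%. AGATAA or TGATAA occurred in 5 of 34 member windows (14.7%) against 18.6% of all. By gene, CACGTG was present for 7 of the 22 members with a window that fell (31.8%) and for 5 of the 7 that did not pass (71.4%). AGATAA or TGATAA was present for 5 of the 22 that fell (22.7%) and 0 of the 7 that did not pass. Over all 27025 genes with a window, the share was 8.09% for CACGTG. For AGATAA or TGATAA it was 21.0%, near that of the members that fell. These are counts of letters with no test.

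Signals were compared on the scale of log2(signal + 32) after quantile normalization, with limma and Benjamini-Hochberg adjustment over all 31526 probe sets tested, and a gene is counted by the probe set of highest mean signal. A gene is said to have fallen or risen where its adjusted p was under 0.05. Of the 33 genes, 25 fell, 0 rose and 8 did not pass, so that 75.8% fell, while 17.1% of all 14230 genes tested fell and 18.3% rose (35.5% in either direction). The median log2 fold change was -0.38 over the members and 0.03 over all genes tested, and the members ranged from -1.58 to 0.08. Falls of at least 2-fold were seen for 5 members, Lgmn, Ctsz, Ctsh, Gm2a and Ctss, where 5.14% of all genes fell and 2.07% rose that far. In the signals as deposited, 26 of the 33 genes had no overlap between the groups and all 26 were lower in knockdown, against 20.4% of all genes that were lower without overlap and 49.4% without overlap in either direction.

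Counted by probe set, 39 of the 63 tested were lower and 1 was higher, with 14.3% and 16.1% of all probe sets tested as the background (30.4% in either direction). By gene, centring each array on its median gave 27 members that fell and 0 that rose, and the values as deposited gave 24 and 0. Over all genes, the share of rises among calls was 51.7% here, 28.7% with centring and 56.4% as deposited. The median log2 fold change of all genes was 0.03 here, -0.08 with centring and 0.12 as deposited, and that of the members was -0.54 and -0.35 under these alternatives.

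**Figure D1:**
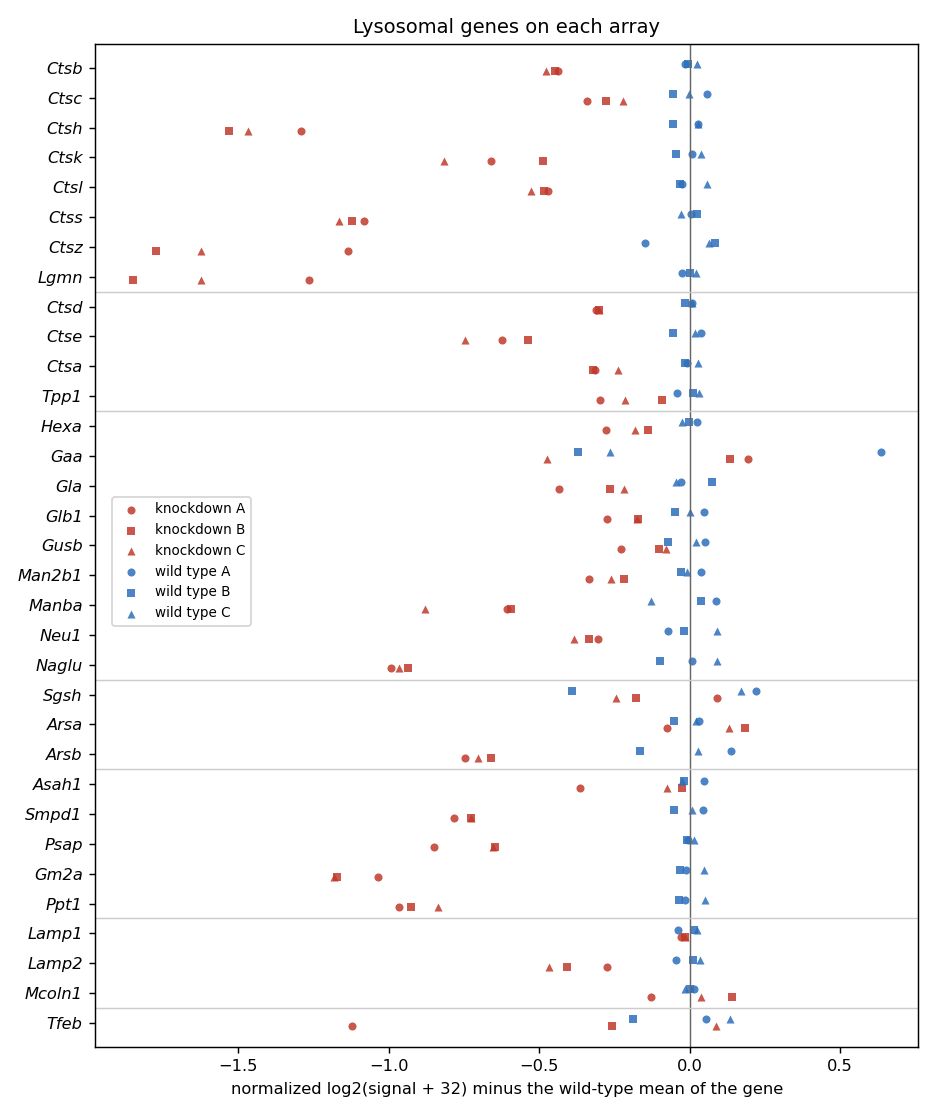
Each point is 1 array and each line 1 gene, on the axis of normalized log2(signal + 32) minus the gene's mean over the 3 wild-type arrays, with red for knockdown and blue for wild type and a shape for each sample letter. The 8 cysteine peptidases at the top lay below every wild-type array on all 3 knockdown arrays, while the groups overlapped for 7 genes, Gaa, Sgsh, Arsa, Asah1, Lamp1, Mcoln1 and Tfeb.

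The cysteine peptidases fell together. For this class and those below, the share of all genes tested that fell was 17.1%. All 8 were lower in knockdown, under each of the 3 scalings, and their median log2 fold change was -0.89, between -1.58 and -0.28. Lgmn, the asparaginyl endopeptidase that also activates cathepsins, read 1608.3, 1046.6 and 1245.5 in knockdown A, B and C and 3969.9, 3978.4 and 4067.6 in wild type A, B and C. The wild-type arrays agreed closely and every knockdown array was far below them, with knockdown A the highest of its group. The log2 fold change of Lgmn was -1.58 ± 0.12 (SE), or 2.99-fold lower (limma adjusted p 6.29e-06).

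Ctsz, a carboxypeptidase, read 4896.8, 3109.5 and 3537.7 in knockdown and 10186.2, 11520.7 and 11873.1 in wild type. Again the groups were far apart and knockdown A was the highest of the knockdown arrays. It changed by -1.51 ± 0.14 (limma adjusted p 1.98e-05), and its other probe sets by -1.69 ± 0.05 and -1.81 ± 0.10, so all 3 fell.

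Ctsh, an aminopeptidase, read 514.6, 427.6 and 448.5 in knockdown and 1285.1, 1204.8 and 1278.8 in wild type, without overlap, a change of -1.43 ± 0.09 (limma adjusted p 2.05e-06). Its second probe set fell by 1.17 on the log2 scale. Ctss, the peptidase that trims the invariant chain in cells that present antigen, read 5286.7, 5123.9 and 5021.2 in knockdown and 11652.3, 11414.9 and 11543.3 in wild type. The groups were far apart against a small spread within each, and the change was -1.12 ± 0.04, or 2.18-fold lower (limma adjusted p 6.22e-08).

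Ctsk, known for breaking down collagen in osteoclasts, is the next protein-coding gene to Ctss in the GRCm38.p6 gene order. It was dim, at 152.1, 201.0 and 138.8 in knockdown and 243.4, 238.6 and 248.4 in wild type, all above the background of its array. The groups did not overlap, and it changed by -0.65 ± 0.16 (limma adjusted p 0.00929).

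The other 3 cysteine peptidases had high signals and smaller changes. Ctsb, an abundant cathepsin of most cells, read 12216.1, 14079.8 and 13242.2 in knockdown and 16239.5, 15617.3 and 16716.5 in wild type, and changed by -0.46 ± 0.04 (limma adjusted p 7.93e-06). Ctsl, an endopeptidase, had a wild-type mean of 7397 ± 336 and a knockdown mean of 4934 ± 80.4 (SD, n = 3 for each), a change of -0.50 ± 0.05. Ctsc, which activates the serine peptidases of myeloid granules, had a wild-type mean of 3100.3 ± 112 and a knockdown mean of 2447 ± 91.7 (SD, n = 3), the smallest change of the 8 at -0.28 ± 0.06 (limma adjusted p 0.00563). Only the brightest of its 3 tested probe sets was called, and the call was lost without an intensity trend in limma (adjusted p 0.0606).

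All 4 aspartic and serine peptidases fell, with log2 fold changes from -0.64 to -0.20. Ctsd, the main aspartic peptidase of the lysosome, read 14574.2, 17282.9 and 16765.6 in knockdown and 17635.1, 16234.8 and 17431.6 in wild type, where the groups overlapped. Its log2 fold change was -0.30 ± 0.03 (limma adjusted p 8.61e-05) after normalization, and -0.08 with an adjusted p of 0.452 for the values as deposited. The brightest probe set of each array read 21181.8 to 23171.2 in wild type and 23420.0 to 32655.4 in knockdown.

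Ctse, an aspartic peptidase of endosomes, read 744.7, 774.1 and 667.2 in knockdown and 1159.3, 1078.1 and 1133.2 in wild type. The groups did not overlap and the change was -0.64 ± 0.09 (limma adjusted p 0.000304), while its dimmer probe set had -0.12 ± 0.20 and did not pass. Ctsa, a carboxypeptidase that also protects Neu1 and Glb1 from breakdown, went from 4510 ± 108 to 3481 ± 136 (SD, n = 3 each; -0.29 ± 0.05), and with the mean of its probe sets the limma adjusted p was 0.0562. Tpp1, which removes tripeptides, changed by -0.20 ± 0.06 (limma adjusted p 0.02), but lost the call without knockdown C, wild type B or wild type C, at an adjusted p of 0.0723, 0.0713 and 0.0869. It also lost the call without an intensity trend and with the mean of its probe sets, at 0.169 and 0.0633. Its other probe set had -0.04 ± 0.08.

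Of the 9 glycosidases, 7 fell and 2 did not pass, with a median log2 fold change of -0.27. Naglu, which acts on heparan sulfate, read 456.1, 467.8 and 460.2 in knockdown and 899.5, 829.9 and 947.2 in wild type. The groups were far apart for this gene, which had the largest change of the class, -0.96 ± 0.09 (limma adjusted p 2.9e-05). Manba, the beta-mannosidase, read 447.9, 447.0 and 359.1 against 702.9, 678.6 and 589.7, also without overlap, a change of -0.69 ± 0.12 (limma adjusted p 0.00129).

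Changes of the other called glycosidases were small. Neu1, the lysosomal sialidase, changed by -0.34 ± 0.10, the alpha-galactosidase Gla by -0.31 ± 0.08 and the alpha-mannosidase Man2b1 by -0.27 ± 0.05. The beta-galactosidase Glb1 changed by -0.21 ± 0.06 and Hexa, the alpha subunit of hexosaminidase A, by -0.20 ± 0.05 (highest limma adjusted p of the 5, 0.0322, for Glb1). The call of Glb1 was lost when knockdown C, wild type A, wild type B or wild type C was left out, at an adjusted p of 0.0569, 0.134, 0.0648 and 0.114, and so was that of Neu1, at 0.0645, 0.0511, 0.0737 and 0.123. That of Gla was lost without wild type B (adjusted p 0.0627). Averaged over a gene's probe sets, Gla had -0.18, Man2b1 -0.13 and Neu1 -0.10, none of them called (limma adjusted p 0.397, 0.222 and 0.744), and the dimmer probe set of Man2b1 had 0.01 ± 0.16. Without an intensity trend in limma the calls of Gla, Man2b1, Glb1 and Hexa were lost, at adjusted p of 0.0705, 0.06, 0.128 and 0.138. Neu1 also lost its call as deposited (adjusted p 0.0539).

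Gusb, the beta-glucuronidase, and Gaa, which frees glucose from glycogen, did not pass. Gusb read 2214.7, 2341.4 and 2426.9 in knockdown and 2766.5, 2519.7 and 2708.7 in wild type, with -0.14 ± 0.07 (limma adjusted p 0.158). It was called at -0.39 with arrays centred on their medians and at -0.19 as deposited, with adjusted p of 0.0117 and 0.0482. Gaa read 832.9, 782.9 and 513.0 in knockdown and 1111.9, 525.8 and 557.7 in wild type, where wild type A stood apart. Its log2 fold change was -0.05 ± 0.26, and 0.31 without wild type A (limma adjusted p 0.917 and 0.1), and its other probe set had 0.22 ± 0.11.

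Among the 3 sulfatases only Arsb, which acts on dermatan sulfate, fell. It was dim, at 170.5, 206.1 and 182.7 in knockdown and 323.1, 257.3 and 293.0 in wild type, without overlap (-0.70 ± 0.15, limma adjusted p 0.0042). Arsa, which acts on sulfatide, read 1572.3, 1815.3 and 1782.5 in knockdown and 1690.3, 1586.0 and 1680.3 in wild type, overlapping, with 0.08 ± 0.08 (limma adjusted p 0.529), and with values from -0.14 to 0.16 under the alternatives tried. Sgsh, an enzyme of heparan sulfate breakdown, had -0.11 ± 0.21 (limma adjusted p 0.745) and overlapping signals.

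Of the 5 genes for lipid and thioester hydrolases and their activators, 4 fell, and their median change was -0.75. Gm2a, the activator that presents GM2 ganglioside to hexosaminidase A, read 358.1, 330.4 and 317.7 in knockdown and 718.8, 709.8 and 742.4 in wild type. No arrays overlapped, and the change was -1.13 ± 0.10, or 2.19-fold lower (limma adjusted p 1.72e-05). Hexa, whose product works with it, is the glycosidase with the change of -0.20 given above.

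Psap, the precursor of the 4 saposins, read 6775.6, 7804.4 and 7893.3 in knockdown and 12610.6, 12054.4 and 12731.0 in wild type. The groups were apart, with -0.72 ± 0.06 at this probe set and -0.78 ± 0.05 at the other (limma adjusted p 7.74e-06 and 2.23e-06). Ppt1, which removes palmitate from proteins, read 804.2, 806.4 and 868.6 against 1542.5, 1520.6 and 1624.6, a change of -0.91 ± 0.08 (limma adjusted p 1.04e-05). Smpd1, the acid sphingomyelinase, read 2000.1, 2007.5 and 2059.7 against 3669.9, 3399.9 and 3577.8, a change of -0.75 ± 0.06, with -0.79 ± 0.12 at its second probe set.

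Gm2a and Ppt1 rest on their bright probe sets. Ppt1 had a second bright probe set at -1.04 ± 0.08. The other tested probe sets did not pass, with -0.18 ± 0.25 for Gm2a and -0.19 ± 0.19 and 0.75 ± 0.37 for Ppt1. The one at 0.75 lay within background on 2 knockdown and 3 wild-type arrays. Averaged over each gene's probe sets, the log2 fold changes of Gm2a and Ppt1 were -0.47 and -0.30, and the limma adjusted p 0.0585 and 0.117. Asah1, the acid ceramidase, was the member of this class that did not pass, with signals of 2589.3, 3161.5 and 3151.6 against 3574.3, 3386.1 and 3397.4 and a change of -0.16 ± 0.09 (limma adjusted p 0.217). With arrays centred on their medians it was called at -0.42 (adjusted p 0.00524).

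**Figure D2:**
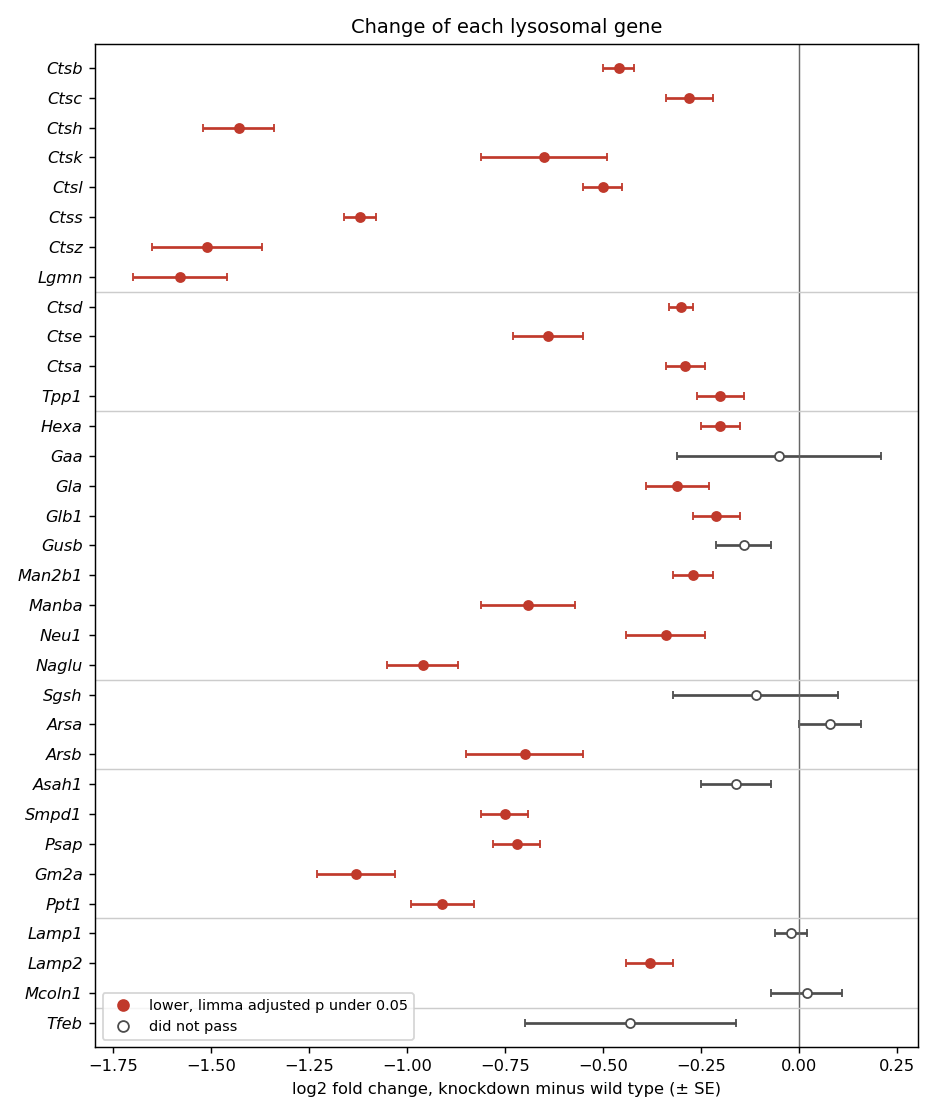
Points give the log2 fold change of each gene, knockdown minus wild type, with its SE from limma as the bar, and filled red points passed an adjusted p of 0.05. The 25 filled points all lie to the left of 0, from Lgmn at -1.58 to Tpp1 and Hexa at -0.20, and the 8 open points reach from Tfeb at -0.43 to Arsa at 0.08.

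Of the 3 membrane proteins, Lamp2 fell and Lamp1 and Mcoln1 did not pass. Lamp1, a major glycoprotein of the lysosomal membrane, read 12118.6, 14135.2 and 13724.5 in knockdown and 12891.1, 12664.6 and 13387.1 in wild type. The groups overlapped, with -0.02 ± 0.04 (limma adjusted p 0.76), and values of 0.04 as deposited and -0.16 with centring that did not pass either. Lamp2, its relative with a part in autophagy, read 5912.3, 5414.7 and 5274.3 in knockdown and 7440.6, 7595.8 and 7920.5 in wild type, without overlap.

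Lamp2 changed by -0.38 ± 0.06 (limma adjusted p 0.000557) at its brightest probe set and by -0.53 ± 0.05, -0.70 ± 0.08 and -0.93 ± 0.13 at the other 3. On deposited signals, where a linear factor per array cancels, the log2 of the Lamp2 over the Lamp1 signal within an array was -1.26 ± 0.20 over the knockdown arrays and -0.76 ± 0.03 over those of wild type (SD, n = 3). Every knockdown array was below every wild-type array in this ratio, which is given as a description.

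Mcoln1, a cation channel of the lysosome, read 841.7, 989.1 and 934.7 in knockdown and 899.4, 891.8 and 871.5 in wild type, with 0.02 ± 0.09 (limma adjusted p 0.916), and with values from -0.15 to 0.23 under the alternatives tried. A dim probe set of Mcoln1 read 182.7, 184.0 and 262.5 against 97.3, 97.1 and 113.1. It was the 1 member probe set called higher, at 0.65 ± 0.20 (limma adjusted p 0.0357). Tfeb was dim, at 98.0, 231.6 and 282.7 in knockdown and 251.0, 208.9 and 265.8 in wild type. Knockdown A stood below all other arrays, and the log2 fold change was -0.43 ± 0.27 with it and -0.08 without it (limma adjusted p 0.288 and 0.759).

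Several probe sets of a gene mostly gave the same direction but not the same size. Of the 20 members with at least 2 tested probe sets, 7 had all of them lower, 9 had some lower and the others not passed, 1 (Mcoln1) had 1 higher, 3 had none called, and no gene had calls in opposite directions. In 8 of the 9 members with several lower probe sets (88.9%) the called probe set of highest signal had a smaller fall than the called one of lowest signal, as in 62% of the 829 genes of the whole table with several lower probe sets. The exception was Ctsh. Only called probe sets were counted, and a dim one with a large SE needs a larger fall to be called. The count therefore cannot tell whether dimmer probe sets fell more. Ctsb gave -0.46 and -0.55 at its bright probe sets and -1.01 and -0.88 at dimmer ones, but -0.41 ± 0.17 at its dimmest, which did not pass. The dimmer probe set of Ctsl lay within background on all knockdown arrays and was at least 1.27-fold lower.

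**Figure D3:**
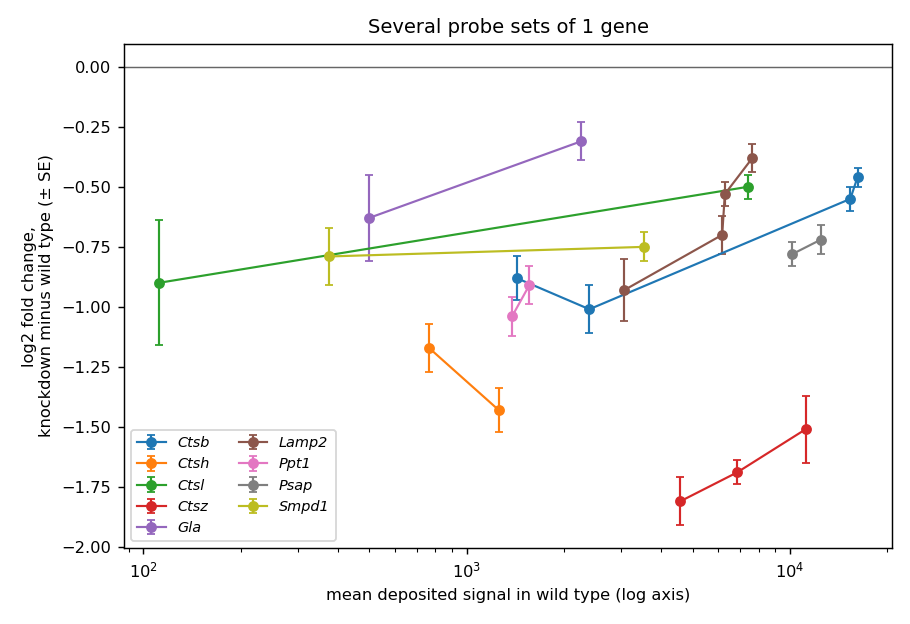
Lines join the probe sets of 1 gene that were called lower, with the mean deposited signal in wild type on a log axis and the log2 fold change with its SE on the other. The 4 probe sets of Lamp2 run from -0.93 at the lowest signal to -0.38 at the highest, and only the line of Ctsh slopes the other way from end to end.

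Other lysosome genes also fell more often than they rose. The list held 99 other lysosome genes, of which 90 had a probe set and 88 were tested. Of the 88, 45 fell (51.1%), 5 rose (5.68%) and 38 did not pass, with a median log2 fold change of -0.27. Over all genes tested, 17.1% fell and 18.3% rose. The largest falls were those of Galc, the galactosylceramidase, at -1.57 ± 0.12, of the acid lipase Lipa at -1.48 ± 0.06 and of the carboxypeptidase Scpep1 at -1.12 ± 0.08, besides Tfec. Lipa read 1407.7, 1373.0 and 1531.3 in knockdown and 4259.8, 3960.7 and 4311.4 in wild type. Galc changed by -0.63 with the mean of its probe sets and stayed called. Cd68, a lysosomal membrane protein that marks macrophages, changed by -1.08 ± 0.09.

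Of 3 cystatins, inhibitors of cathepsins, 2 fell. Cst3, the secreted cystatin C, read 3602.9, 3541.1 and 3720.4 in knockdown and 5989.7, 5977.9 and 6099.8 in wild type (-0.64 ± 0.05, limma adjusted p 4.35e-06). The cytosolic Cstb had -0.06 ± 0.04 (limma adjusted p 0.294), and -0.33 with arrays centred on their medians, where it was called. Of 6 receptors and adaptors that deliver hydrolases, 3 fell, and the adaptor Gga3 rose, with 1166.2, 1463.5 and 1314.3 in knockdown and 815.2, 772.0 and 733.7 in wild type (0.71 ± 0.10, limma adjusted p 0.000455). Of 15 genes for the proton pump, the V-ATPase, 7 fell and 1, Atp6v1f, named after its value was seen, rose, with 11 and 0 as deposited and 13 and 0 with centring.

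The 3 relatives of Tfeb fell. Tfec, which is known from macrophages, read 21.0, 127.1 and 81.2 in knockdown and 298.1, 398.3 and 334.6 in wild type. As 2 of the 3 knockdown arrays were at or below background, it was at least 3.22-fold lower (limma adjusted p 0.000543). Tfe3 changed by -0.49 ± 0.10 and Mitf by -0.58 ± 0.18 (limma adjusted p 0.00423 and 0.0314). The call of Mitf was lost under 7 of 15 alternatives, among them without knockdown B, wild type A or wild type B and as deposited, at adjusted p of 0.0678, 0.134, 0.0987 and 0.0722.

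The 3 other called rises that the text names were Dnase2a, a DNA-degrading enzyme, at 0.50 ± 0.15, and Lamtor3 and Lamtor2, of the complex that anchors nutrient signalling at the lysosome, at 0.37 ± 0.10 and 0.30 ± 0.06, although Lamtor2 turned to -0.08 with the mean of its probe sets. With arrays centred on their medians these were 0.46, 0.10 and 0.05 and did not pass. Dnase2a also lost its call with knockdown C, wild type A, wild type B or wild type C left out, and Lamtor3 without knockdown C, wild type B or wild type C.

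Most markers of myeloid cells fell, and so did most of those of megakaryocytes, where 17.1% of all genes tested fell and 18.3% rose. Of 19 tested macrophage markers, which share no gene with the 33, 17 fell, their median log2 fold change being -1.39 and their summed signal 14654 to 16851 in knockdown and 39118 to 40131 in wild type, a ratio of 0.402. The summed signal of the 33 lysosomal genes was 111145 to 119668 in knockdown and 153738 to 161107 in wild type, a ratio of 0.736. For the 12 megakaryocyte markers this ratio was 0.783. Such sums are weighted to the brightest probe sets and do not tell which cells a signal came from. Of these 12 markers 9 fell (75%), against 75.8% of the 33 genes. Their middle value was -0.51 on the log2 scale, where that of the 33 genes was -0.38. Csf1r, the growth factor receptor that defines macrophages, read 2444.8, 2570.3 and 2413.7 against 6820.6, 6944.9 and 7050.8 (-1.40 ± 0.05, limma adjusted p 6.07e-08). Of the 19, 14 lay above background on all knockdown and 17 on all wild-type arrays. The full list held 23 macrophage markers. Cd163, Marco, Clec4f and Timd4 were left out by the filter on dim signals and lay within background on all 6 arrays.

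Of 13 neutrophil markers 10 fell, with a median of -1.39, a summed signal of 3400 to 3497 against 11928 to 12366, and 7 above background on all knockdown arrays and 13 on all of wild type. Of 12 mast cell markers 9 fell, with a median of -1.57, a summed signal of 1369 to 1747 against 4872 to 5439, and 2 and 10 above background. Of 8 red cell markers 2 fell (25%) and 1 rose (12.5%), near the 17.1% and 18.3% of all genes tested. Their median was -0.29 and their summed signal 3458 to 3608 against 15007 to 15312. The lower sum came mostly from the 2 that fell. Hbb-y had a mean of 1125.5 in knockdown and 9747.5 in wild type, and Epor 757.4 and 3989.8. The part of these cells in the falls of the lysosomal genes was not tested. In samples of many cells, fewer cells of a type and less RNA per cell cannot be told apart.

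**Figure D4:**
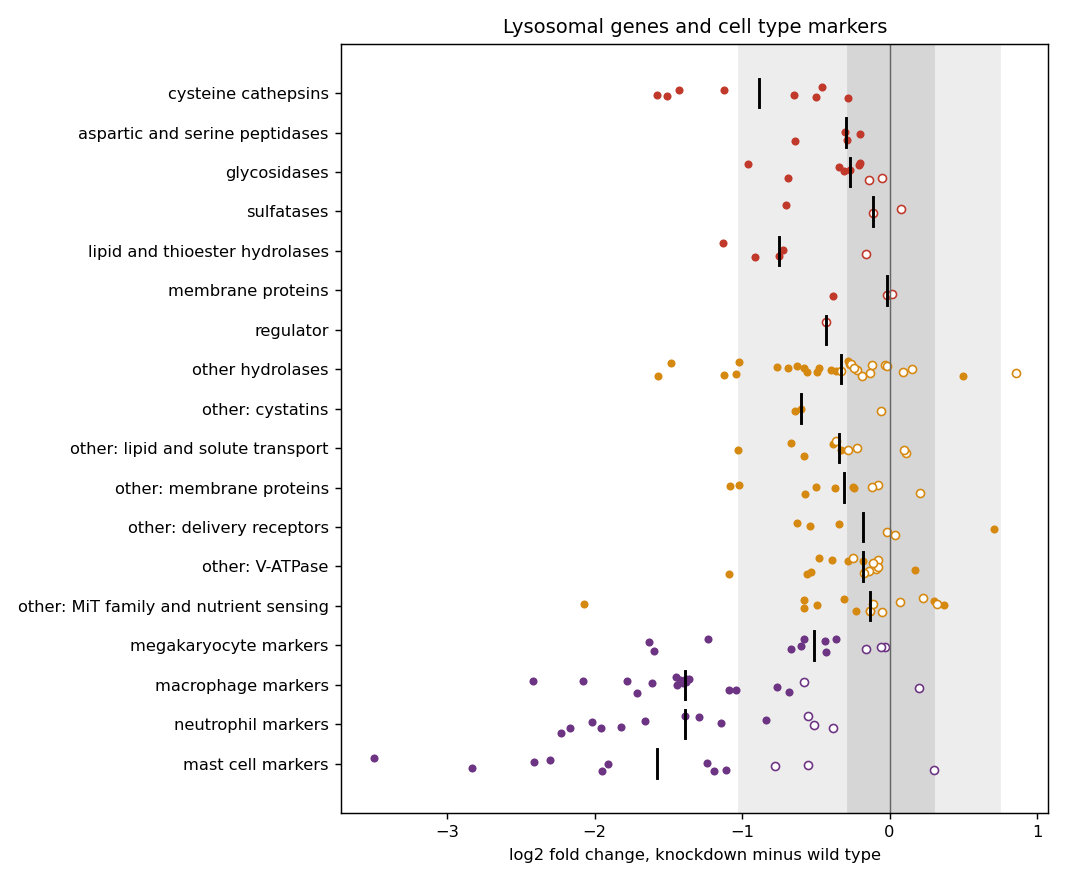
Points are genes by their log2 fold change, knockdown minus wild type, filled where limma's adjusted p was under 0.05, with a black bar at each list's median. Red marks the 33 lysosomal genes by role, orange the other lysosome genes and purple the megakaryocyte, macrophage, neutrophil and mast cell markers. The red cell markers, with a median of -0.29, are not drawn. The dark and light bands hold the middle 50% and 90% of all genes tested. Values of genes within background in knockdown are fitted and are no bounds. The medians run from -0.89 for cysteine peptidases to -0.02 for membrane proteins (0.04 as deposited), and stand at -1.39 for macrophage and -1.57 for mast cell markers.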

How the data were processed

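The deposited table holds array intensity on a linear scale for 45101 probe sets and 6 samples. Each deposited column had a mean of 500.0 after trimming 2% from both tails, which is a common scaling by the authors. The processing software is not given in the sources used here.

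After adding 32, signals were log2 transformed and quantile normalized, since array medians on that scale spanned 0.346. A fold change on this scale understates the change of dim genes. The 64 control probe sets and those with a mean below the 30th percentile were left out, and groups were compared with limma 3.58.1 in R 4.3.3 (lmFit, eBayes with an intensity trend, two-sided), a procedure tested on simulated data. Means ± SD are of deposited signals, and SE of log2 fold changes are from limma.

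Probe sets were named from the platform annotation, where 34945 name 1 gene, with symbols updated through RefSeq gene numbers. A gene at or below the highest bacterial control on 2 or 3 arrays of a group has a bound, written as at least, on the log2(signal + 32) scale. No 2 arrays of a group shared over 0.233% of signals. Precision is limited by the number of arrays.

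The members and lists were chosen with earlier results of these data known. Named are all 33 members, Gata1, the 4 called genes of the other lysosome list that rose most and the 4 that fell most, and Tfe3, Mitf, Tfec, Cst3, Cstb, Cd63 and Cd68, of which Cd63 had no probe set named for it alone. Csf1r, Hbb-y, Epor and the 4 macrophage markers within background were named after their values were seen. The alternatives tried were offsets of 1 and 100, 2 other scalings, no filter and one at the 50th percentile, no intensity trend, the mean of a gene's probe sets, the replicate letter as a block, and leaving out each array.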

Additional observations from a re-analysis of the deposited data

How the results depend on the processing

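Under 15 alternatives, 14 of the 25 members that fell kept their call in all, 11 lost it in at least 1, 2 that had not passed passed in at least 1, and no call turned in direction. The count of members that fell was 18 to 27, lowest with the mean of a gene's probe sets and 19 without an intensity trend, and 21 to 25 when an array was left out, while 0 rose under each. Other lysosome genes that rose numbered 5, but 1 with arrays centred on their medians, 3 without an intensity trend, and 2 to 8 when an array was left out, with 8 without knockdown A, 3 without knockdown C, 3 without wild type A and 2 without wild type C. Other lysosome genes that fell numbered 33 to 60, 36 to 48 with an array left out. Lamtor2 had -0.08 with the mean of its probe sets. The causes were not tested.

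With the replicate letter as a block, 23 members fell and 0 rose, with Glb1 and Neu1 losing their calls, and 41 other lysosome genes fell and 4 rose. The labels do not say that a letter pairs samples, and the deviations of same-lettered samples correlated at -0.042, -0.017 and -0.01. Errors differ between genes: the SE of the log2 fold change was 0.27 for the dim Tfeb, where knockdown A stood below the other arrays, and 0.04 for the bright Ctsb.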

Other observations

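In log2 ratios of 2 lysosomal genes, taken within an array on deposited signals, a linear factor per array cancels. Quantile normalization is no such factor, and after it the log2 fold changes were -1.51 for Ctsz and -0.30 for Ctsd. A ratio of signals of different probe sets is no ratio of amounts. Of the 3 such ratios computed, that of Ctsz over Ctsd was -1.57, -2.46 and -2.23 in knockdown A, B and C and -0.79, -0.49 and -0.55 in wild type, a difference of -1.48. That of Ctss over its neighbour Ctsk was 4.85, 4.47 and 4.89 in knockdown and 5.41, 5.40 and 5.37 in wild type, a difference of -0.66. An added background does not cancel, and Ctsk was dim, at 201.0 on knockdown B, where background was 132. The third ratio is that of Lamp2 over Lamp1, and all 3 ratios were lower on every knockdown array. An exact permutation test gave p of 0.10 for each ratio, and 0.10 after Benjamini-Hochberg adjustment over the 3. With 3 arrays against 3 such a p cannot be lower. The 3 pairs were chosen with values of these genes known, so the ratios are a description and no conclusion rests on this test.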
